A study of Homo sapiens with 12 samples.

Results

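The IL-6 family is described here by 10 genes: the cytokine genes IL6, LIF, IL11 and CLCF1, the receptor genes IL6R, IL6ST, OSMR and LIFR, and the signalling genes SOCS3 and STAT3. They were found by gene symbol in the array's probe annotation, and where a gene had several probe sets, that of highest mean level on the 12 arrays stood for it. Of the 10, 9 were found, each with 1 probe set, among 18417 genes measured. CLCF1, a cytokine gene of this family, is not listed under its symbol in that annotation and is not analysed here.

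The cells were MCF10A, a non-tumorigenic human breast epithelial line, that stably express a chimera of full-length human HER2 joined to FKBP and HA tags. FKBP binds the bivalent compound AP1510, which pulls the tagged receptors together into HER2 homodimers. All 4 groups carried the chimera and held 3 arrays each. They were untreated cells and cells given AP1510, TGF-alpha, which binds EGFR, or heregulin, which binds HER3 and HER4, with RNA taken 48 hours after ligand. Every group was kept in insulin (10 microgram/ml), hydrocortisone (500 ng/ml) and cholera toxin (100 ng/ml) throughout, and lost its EGF (20 ng/ml) and 5% horse serum 24 hours before the ligand was added. Dishes were seeded in triplicate, per the labels, so the p-values reflect spread among dishes only. The sources used here do not give ligand doses, a vehicle, when untreated cells were harvested, or whether the chimera line is 1 clone.

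Most IL-6 family cytokines act through receptor complexes that share the signalling subunit gp130, encoded by IL6ST. Further receptor chains take part, among them IL6R for interleukin-6, LIFR for leukemia inhibitory factor and OSMR for oncostatin M. Bound receptors activate JAK kinases, which phosphorylate STAT3, and STAT3 in turn induces acute phase genes and SOCS3, an inhibitor that shuts the receptor down. In the mammary gland, LIF and STAT3 are known for their part in the involution that follows lactation.

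Levels are log2 intensities as the authors normalised them with RMA, so a difference of 1 is a 2-fold change. Differences were tested with limma, and a gene passed at a Benjamini-Hochberg adjusted p under 0.05 over all 18417 genes of a comparison. Errors of levels are SD and errors of differences are standard errors, with n = 3 arrays per group. Array medians over all probe sets lay between 5.33 and 5.44, and the files give no detection calls, so a level near this median is a dim one. The epithelial markers KRT5, KRT14, ITGA6, CDH1 and EPCAM were above the array median on all 12 arrays. AP1510 replicate 1 stood apart from its group, at -2.4 on the first principal component (48.6% of the variance) against -14.0 and -12.0 for the other 2 AP1510 arrays and 34.0 to 38.3 for TGF-alpha arrays. On the second component (19.6% of the variance), heregulin replicate 2 lay at 30.1 against 20.0 and 17.8 for the other 2 heregulin arrays. Values without AP1510 replicate 1 are given for IL6 and LIF, whose AP1510 differences moved most. They are also given for OSMR, which lost a call, and for IL6R against untreated, which turned direction.

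Promoter sequences are shown for 4 members, IL6, IL11, LIFR and STAT3. IL6 had the widest range of group means, and IL11 is a ligand gene without a call. LIFR is the receptor gene that fell with heregulin, and STAT3 rose with it. The 4 include every member that had a window with a match to the motifs below, and a link between window and level was not tested. Each sequence is the 250 bases before the start site from RefSeq (GRCh38.p14), 5′ to 3′ on the gene's own strand. RefSeq windows were matched for 8 of the 10 members. LIF and CLCF1 had no window, so their promoters were not searched. Capitals mark matches on either strand to 4 motifs: the STAT element TTCNNNGAA, an NF-kB site, the AP-1 site TGANTCA and the C/EBP site TTGCNCAA. The windows lie at chr7:22726950-22727199 (+ strand) for IL6, chr19:55370464-55370713 (- strand) for IL11, chr5:38595406-38595655 (- strand) for the first of 3 LIFR start sites and chr17:42388443-42388692 (- strand) for STAT3.
IL6: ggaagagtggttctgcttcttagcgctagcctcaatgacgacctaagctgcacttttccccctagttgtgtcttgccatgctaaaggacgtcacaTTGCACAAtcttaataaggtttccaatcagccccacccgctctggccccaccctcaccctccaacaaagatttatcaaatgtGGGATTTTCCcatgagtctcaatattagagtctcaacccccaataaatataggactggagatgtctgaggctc
IL11: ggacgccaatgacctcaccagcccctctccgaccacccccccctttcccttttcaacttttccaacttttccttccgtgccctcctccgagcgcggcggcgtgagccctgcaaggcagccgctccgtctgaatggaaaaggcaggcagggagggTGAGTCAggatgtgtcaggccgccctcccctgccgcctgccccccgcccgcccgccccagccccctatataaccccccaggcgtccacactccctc
LIFR: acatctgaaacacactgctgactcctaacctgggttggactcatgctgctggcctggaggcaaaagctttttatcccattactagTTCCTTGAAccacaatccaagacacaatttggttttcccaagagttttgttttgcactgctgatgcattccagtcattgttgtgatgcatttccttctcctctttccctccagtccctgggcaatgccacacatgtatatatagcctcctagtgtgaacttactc
STAT3: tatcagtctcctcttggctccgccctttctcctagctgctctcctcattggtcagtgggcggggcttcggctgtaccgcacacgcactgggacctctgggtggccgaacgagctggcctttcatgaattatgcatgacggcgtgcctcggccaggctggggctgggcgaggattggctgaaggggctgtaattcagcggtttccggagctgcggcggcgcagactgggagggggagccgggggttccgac
The IL6 window held an NF-kB site 73 to 64 bases before the start and a C/EBP site 155 to 148 bases before it. Among 34943 windows of the same length in the RefSeq table, 0.527% held the NF-kB motif and 2.28% the C/EBP motif. Such a share depends on how many letters a motif fixes, and the NF-kB motif fixes the most. The IL11 window held an AP-1 site 96 to 90 bases before the start, a motif found in 6.59% of windows. The LIFR window held a STAT element 165 to 157 bases before the start, and the second LIFR start site had another 182 to 174 bases before it, against 6.56% of all windows. The STAT3, IL6R, IL6ST and OSMR windows, both SOCS3 windows and the third LIFR window held none of these letters. None of the 4 motifs overlapped another in these windows.

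The 2 cytokine genes IL6 and LIF fell with all 3 treatments, and no other member did. Interleukin-6 is a secreted cytokine that drives the acute phase response. IL6 read 5.55, 5.84 and 5.33 on the untreated arrays, 4.23, 4.67 and 4.74 with AP1510, 3.99, 4.05 and 3.97 with TGF-alpha, and 4.90, 4.86 and 4.99 with heregulin. All 3 untreated arrays lay above every treated array, and the TGF-alpha arrays lay below all others. IL6 was lower 2.03-fold with AP1510 (log2 difference -1.02 ± 0.13, adjusted p = 0.00109), 2.97-fold in TGF-alpha cells (-1.57 ± 0.13, adjusted p = 2.3e-07) and 1.57-fold in heregulin cells (-0.65 ± 0.13, adjusted p = 0.0051). Without AP1510 replicate 1, whose IL6 level was the lowest of its group, the fall with AP1510 was -0.86 ± 0.12 (adjusted p = 0.00351).

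The levels of IL6 ran from untreated cells down through heregulin and AP1510 to TGF-alpha. TGF-alpha cells were below AP1510 cells (-0.55 ± 0.13, adjusted p = 0.00688; -0.70 ± 0.12 without AP1510 replicate 1, adjusted p = 6.2e-04), and heregulin cells stood above TGF-alpha cells by 1.88-fold (0.91 ± 0.13, adjusted p = 9.1e-05). The neighbours heregulin and AP1510 were not separated by the test, although their arrays did not overlap (0.37 ± 0.13, 95% interval 0.08 to 0.65, adjusted p = 0.122). That difference was 0.21 ± 0.12 without AP1510 replicate 1 (adjusted p = 0.398). The signal was dim: group means stood 0.21 above the array median in untreated cells and 0.48 to 1.34 below it in treated cells.

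LIF, leukemia inhibitory factor, was also highest in untreated cells. It read 5.93, 6.22 and 6.13 there, 4.44, 4.97 and 5.35 with AP1510, 4.84, 5.15 and 5.24 with TGF-alpha, and 4.47, 4.80 and 5.05 with heregulin. Every treated array was below every untreated array, while the 3 treated groups overlapped. LIF was lower 2.25-fold with AP1510 (-1.17 ± 0.19, adjusted p = 0.00512), 2.02-fold in TGF-alpha cells (-1.02 ± 0.19, adjusted p = 6.2e-04) and 2.50-fold in heregulin cells (-1.32 ± 0.19, adjusted p = 2.3e-04). The fall with AP1510 was -0.93 ± 0.17 without AP1510 replicate 1 (adjusted p = 0.0214).

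No pair of treatments differed in LIF by the test. TGF-alpha minus AP1510 was 0.16 (95% interval -0.25 to 0.56), heregulin minus AP1510 was -0.15 (-0.55 to 0.25), and heregulin minus TGF-alpha was -0.30 (-0.71 to 0.10), all on the log2 scale. Without AP1510 replicate 1 the first difference turned direction, to -0.08 ± 0.17 (adjusted p = 0.826), and the second was -0.39 ± 0.17 (adjusted p = 0.216). The order of the 3 treatments in LIF was therefore not settled, and the test does not show that they act alike. LIF was dim in treated cells, with group means 0.27 to 0.62 below the array median against 0.73 above it in untreated cells. The 3 comparisons with untreated cells share the same 3 untreated arrays, for LIF as for IL6.

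IL11, the ligand gene of a separate receptor chain that also pairs with gp130, did not pass in any of the 6 comparisons. Its group means were 6.01 ± 0.28 in untreated cells, 6.07 ± 0.06 with AP1510, 6.14 ± 0.11 with TGF-alpha and 6.24 ± 0.11 with heregulin. The untreated arrays read 5.86, 6.34 and 5.85 and spanned nearly all of the other groups. The largest difference was heregulin against untreated, 0.22 ± 0.12 (95% interval -0.03 to 0.48, adjusted p = 0.317). It passed without untreated replicate 2, the high array (0.39 ± 0.10, adjusted p = 0.0312).

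**Figure D1:**
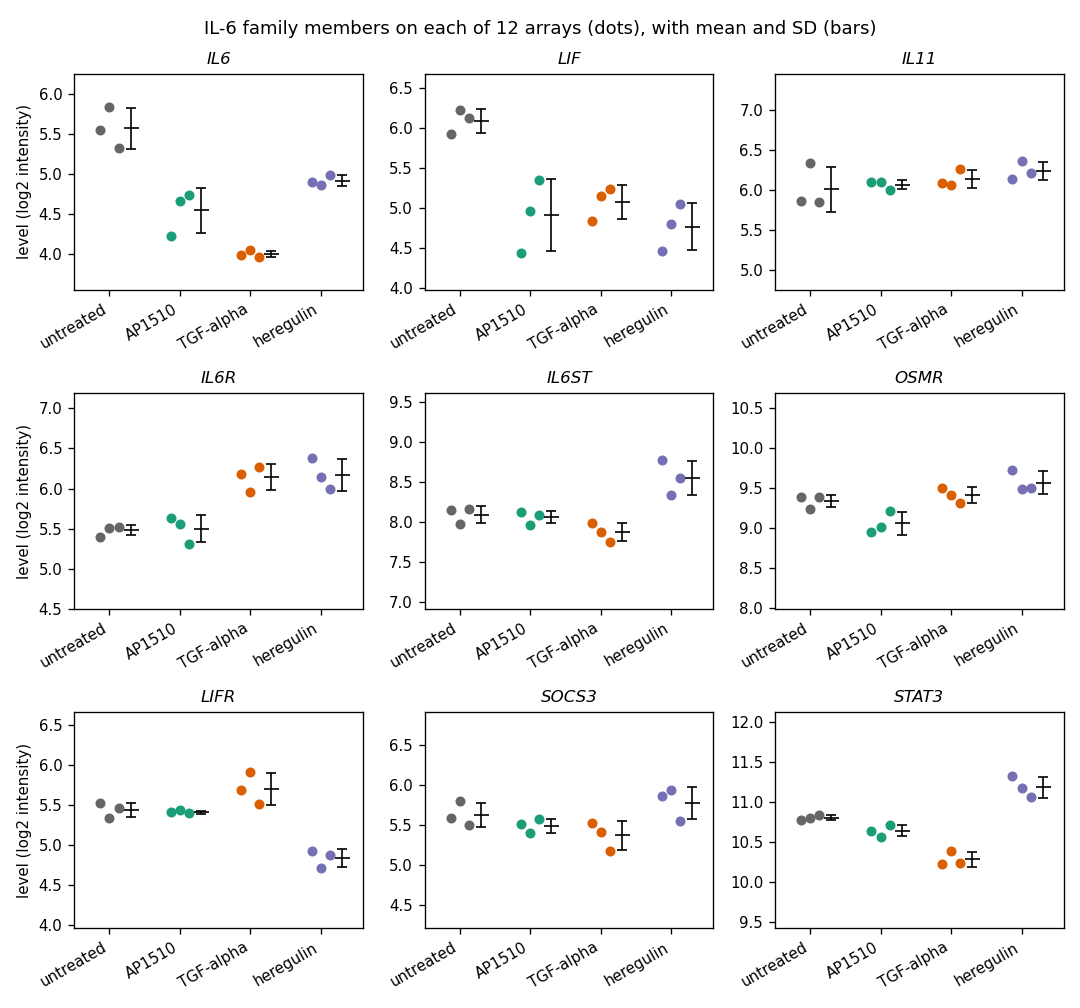
Levels (log2 intensity) of the 9 measured genes on each array by treatment group, with dots for arrays and bars for the mean ± SD (n = 3); every panel spans the same number of log2 units. IL6 and LIF are highest on the 3 untreated arrays, STAT3 and IL6ST on the heregulin arrays, and LIFR is lowest on the heregulin arrays.

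Among receptor genes, IL6R rose with both natural ligands and not with AP1510. IL6R encodes the chain that binds interleukin-6. It read 5.40, 5.51 and 5.52 on untreated arrays, 5.63, 5.56 and 5.31 with AP1510, 6.18, 5.96 and 6.27 with TGF-alpha, and 6.38, 6.15 and 5.99 with heregulin. The TGF-alpha and heregulin arrays overlapped each other and lay above all arrays of the other 2 groups. The signal was dim in those 2 groups, with means 0.11 (untreated) and 0.14 (AP1510) above the array median. IL6R was 1.58-fold higher with TGF-alpha (0.66 ± 0.12, adjusted p = 3.7e-04) and 1.62-fold higher with heregulin (0.70 ± 0.12, adjusted p = 9.9e-04) than in untreated cells. TGF-alpha cells were 1.56-fold above AP1510 cells (adjusted p = 6.8e-04), and heregulin cells were 1.59-fold above them (adjusted p = 0.00167). The order of its levels had 2 pairs of neighbours without a call: AP1510 minus untreated was 0.03 (95% interval -0.22 to 0.27; -0.04 without AP1510 replicate 1), and heregulin minus TGF-alpha was 0.03 (-0.21 to 0.28).

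IL6ST, the shared gp130 chain, rose with heregulin alone among the 3 treatments, and the direct comparisons placed heregulin above both others. It read 8.15, 7.97 and 8.16 on untreated arrays, 8.12, 7.96 and 8.09 with AP1510, 7.98, 7.87 and 7.75 with TGF-alpha, and 8.77, 8.34 and 8.55 with heregulin. All heregulin arrays were above all others. The rise against untreated was 1.38-fold (0.46 ± 0.11, adjusted p = 0.0133), and it missed the threshold without untreated replicate 2 (adjusted p = 0.0648) and without heregulin replicate 1 (adjusted p = 0.0611). Against AP1510 the level was 1.41-fold higher (adjusted p = 0.00986), a call that ended without AP1510 replicate 2 (adjusted p = 0.0541). Against TGF-alpha it was 1.61-fold higher (0.69 ± 0.11, adjusted p = 1.9e-04), a call that held in all 12 refits that left out 1 array. Untreated, AP1510 and TGF-alpha cells were not separated, with TGF-alpha minus untreated at -0.23 (95% interval -0.46 to 0.01, adjusted p = 0.157) and TGF-alpha minus AP1510 at -0.19 (-0.42 to 0.04).

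LIFR, the receptor chain for leukemia inhibitory factor, ran the other way with heregulin. It read 5.53, 5.34 and 5.46 on untreated arrays, 5.41, 5.44 and 5.40 with AP1510, 5.69, 5.91 and 5.51 with TGF-alpha, and 4.92, 4.71 and 4.88 with heregulin. The heregulin arrays were below all 9 others. LIFR was lower with heregulin by 1.52-fold against untreated (-0.61 ± 0.10, adjusted p = 0.00108), 1.49-fold against AP1510 (-0.58 ± 0.10, adjusted p = 0.00201) and 1.82-fold against TGF-alpha (-0.87 ± 0.10, adjusted p = 1.0e-05). With TGF-alpha, LIFR stood 0.26 ± 0.10 above untreated (adjusted p = 0.0799) and 0.29 ± 0.10 above AP1510 (adjusted p = 0.0583). Both passed without TGF-alpha replicate 3 (adjusted p = 0.0238 and 0.0184), and the second also without heregulin replicate 2 (adjusted p = 0.0442) and when the fit dropped dim genes (adjusted p = 0.0354). LIFR is dim on these arrays, with group means from 0.56 below to 0.35 above the array median.

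OSMR, a chain for oncostatin M, passed only in comparisons between treatments. It read 9.39, 9.24 and 9.39 on untreated arrays, 8.95, 9.02 and 9.22 with AP1510, 9.50, 9.42 and 9.31 with TGF-alpha, and 9.73, 9.49 and 9.50 with heregulin. AP1510 arrays were the lowest and heregulin arrays mostly the highest. Heregulin stood 1.42-fold above AP1510 (0.51 ± 0.10, adjusted p = 0.00436; 0.45 ± 0.11 without AP1510 replicate 1, adjusted p = 0.0206) and TGF-alpha 1.27-fold above it (0.35 ± 0.10, adjusted p = 0.0192). The second call ended without AP1510 replicate 1 (adjusted p = 0.0804), AP1510 replicate 2 (0.0705), TGF-alpha replicate 1 (0.0841) or TGF-alpha replicate 2 (0.0575). Against untreated, AP1510 was at -0.28 ± 0.10 (adjusted p = 0.253; -0.22 ± 0.11 without AP1510 replicate 1), TGF-alpha at 0.07 ± 0.10 (adjusted p = 0.708) and heregulin at 0.23 ± 0.10 (adjusted p = 0.192), with 95% intervals of -0.49 to -0.06, -0.14 to 0.28 and 0.02 to 0.45. In order, the levels ran from AP1510 through untreated and TGF-alpha to heregulin, and no neighbouring pair in that order was called.

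STAT3, the transcription factor at the end of this pathway, was the only member called in opposite directions with TGF-alpha and heregulin. It read 10.77, 10.80 and 10.84 on untreated arrays, 10.64, 10.56 and 10.71 with AP1510, 10.22, 10.38 and 10.23 with TGF-alpha, and 11.32, 11.17 and 11.06 with heregulin. The 4 groups did not overlap. STAT3 fell 1.44-fold in TGF-alpha cells (-0.53 ± 0.09, adjusted p = 2.6e-04) and rose 1.30-fold with heregulin (0.38 ± 0.09, adjusted p = 0.012). The rise missed the threshold without untreated replicate 1 (adjusted p = 0.0511) and without heregulin replicate 1 (adjusted p = 0.0543), at 0.37 and 0.32.

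The direct comparison of these 2 ligands gave STAT3 the lowest adjusted p of the 9 genes, with heregulin 1.88-fold above TGF-alpha (0.91 ± 0.09, adjusted p = 1.3e-06). Heregulin was also 1.46-fold above AP1510 (adjusted p = 9.8e-04), and TGF-alpha was 1.28-fold below AP1510 (adjusted p = 0.00701). AP1510 and untreated cells were the only neighbours in the order that were not separated (-0.17 ± 0.09, 95% interval -0.35 to 0.02, adjusted p = 0.535). STAT3 passed in 5 of 6 comparisons, as did IL6.

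SOCS3, the feedback inhibitor that STAT3 induces, passed in 1 comparison. It read 5.59, 5.80 and 5.50 on untreated arrays, 5.51, 5.40 and 5.57 with AP1510, 5.53, 5.41 and 5.18 with TGF-alpha, and 5.86, 5.94 and 5.55 with heregulin. All pairs of groups overlapped except heregulin and TGF-alpha, whose nearest arrays read 5.55 and 5.53. SOCS3 was dim, with group means 0.02 to 0.39 above the array median. Heregulin stood 1.33-fold above TGF-alpha (0.41 ± 0.12, adjusted p = 0.0202), which was lost without TGF-alpha replicate 3 (adjusted p = 0.116), heregulin replicate 1 (0.0641) or heregulin replicate 2 (0.0833). Against untreated the differences were -0.14 with AP1510 (95% interval -0.39 to 0.11, adjusted p = 0.761), -0.26 with TGF-alpha (-0.51 to -0.01, adjusted p = 0.137) and 0.15 with heregulin (-0.10 to 0.40, adjusted p = 0.532).

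**Figure D2:**
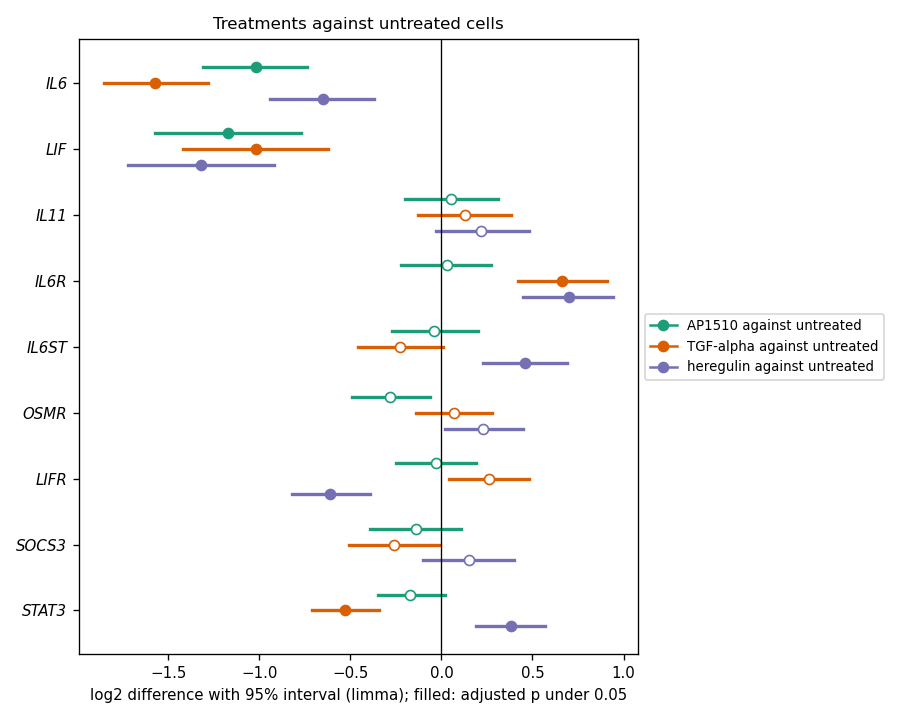
Log2 difference of each gene against untreated cells for AP1510, TGF-alpha and heregulin (points, with 95% intervals from limma as lines); filled points passed at an adjusted p under 0.05. IL6 and LIF are lower with all 3 treatments, IL6R is higher with TGF-alpha and heregulin, and STAT3 is at -0.53 with TGF-alpha and 0.38 with heregulin.

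Counted together against untreated cells, 2 of the 9 genes passed with AP1510, both lower, 4 with TGF-alpha (1 higher, 3 lower) and 6 with heregulin (3 higher, 3 lower; 1 higher without heregulin replicate 1). Of all genes tested, 1.47% passed with AP1510 (0.771% higher and 0.7% lower), 26% with TGF-alpha (12.5% higher and 13.4% lower) and 8.5% with heregulin (3.45% higher and 5.06% lower). The median log2 difference of the 9 genes was -0.14, -0.23 and 0.22 in these comparisons, against -0.01, -0.01 and 0.01 over all genes. Between treatments, 4 passed for TGF-alpha against AP1510 (2 higher, 2 lower; 21.6% of all genes, 11.2% higher and 10.4% lower), 5 for heregulin against AP1510 (4 higher, 1 lower; 7.23%, 3.27% and 3.95%) and 5 for heregulin against TGF-alpha (4 higher, 1 lower; 21.6%, 9.88% and 11.8%). In the comparison of heregulin with TGF-alpha, the 4 higher genes were IL6, IL6ST, SOCS3 and STAT3 and the lower one was LIFR. Median differences between treatments were 0.07, 0.37 and 0.16 for the 9 genes, against 0.01, 0.02 and 0.03 over all genes.

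**Figure D3:**
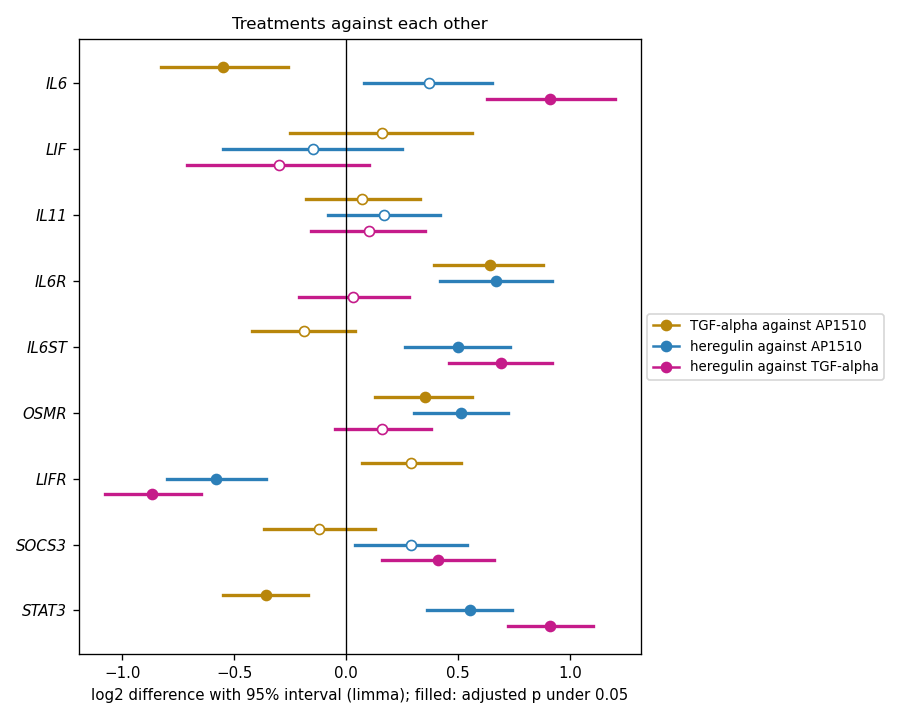
Log2 difference of each gene between treatments (points, with 95% intervals from limma as lines); filled points passed at an adjusted p under 0.05. Heregulin against TGF-alpha has IL6 and STAT3 both at 0.91 and LIFR at -0.87, while the 3 differences of LIF and of IL11 have open points.

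The rest of the pathway was read from 6 lists of 67 genes, of which 64 were measured. With AP1510, 4 of the 64 fell and 0 rose. TGF-alpha raised 13 and lowered 18, and heregulin raised 11 and lowered 7. These counts, and those of each list, stand against the 1.47%, 26% and 8.5% of all genes that passed with AP1510, TGF-alpha and heregulin. The 11 with heregulin dropped to 7 when untreated replicate 1 or untreated replicate 3 was left out. The AP1510 count dropped to 1 when any untreated array or AP1510 replicate 1 was left out or when only those 2 groups were fitted, and to 2 when TGF-alpha replicate 2 was. Median log2 differences of the 64 were -0.05, -0.07 and 0.04. Heregulin against TGF-alpha had 20 higher and 9 lower, and heregulin against AP1510 had 12 higher and 1 lower (3 lower without AP1510 replicate 1), against 21.6% and 7.23% of all genes called in either direction.

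Among the other family ligands, 0 of 5 measured genes (OSM, CTF1, IL27, EBI3 and IL31) passed with limma in any of the 6 comparisons, and 0 had an unadjusted p under 0.05. OSM and IL31 were below the array median on every array, with group means 0.61 to 1.15 below it. EBI3 and IL27 lay near it, with group means from -0.04 to 0.38 relative to it, and CTF1 lay 1.09 to 1.26 above it. For the dim genes, the absence of a call shows little. Of 4 other receptor chains, 1 rose and 1 fell with TGF-alpha (2 rose without TGF-alpha replicate 1 or heregulin replicate 2, when only those 2 groups were fitted, and after quantile normalisation was repeated). IL31RA, the interleukin-31 receptor chain, rose 1.82-fold from a dim 3.61 to 4.48 (adjusted p = 4.1e-05), a gene dropped when dim genes were left out, and IL11RA, the chain for interleukin-11, fell 1.34-fold (adjusted p = 0.00565). None of the 4 passed with AP1510 (0 with an unadjusted p under 0.05) or heregulin (1 with an unadjusted p under 0.05). With heregulin, 1 fell without heregulin replicate 2, and 1 rose without heregulin replicate 3.

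The kinases and adaptors had 7 measured genes, of which 1 rose and 3 fell with TGF-alpha, where 26% of all genes passed. JAK2, a kinase of these receptors, went from 6.08 to 5.12 with TGF-alpha, a 1.95-fold fall (adjusted p = 1.3e-05). With heregulin it was the only one of the 7 to pass, 1.57-fold lower (adjusted p = 0.00231). JAK2 was dim in both groups, with means 0.22 below the array median with TGF-alpha and 0.04 above it with heregulin. JAK1, the kinase most used by gp130, fell 1.37-fold with TGF-alpha (adjusted p = 7.7e-04). The adaptor gene GAB1 fell 1.38-fold (adjusted p = 0.00685), a call that ended when its probe sets were averaged (adjusted p = 0.215). PTPN11, the phosphatase SHP2 that links gp130 to the ERK pathway, rose 1.56-fold with TGF-alpha (adjusted p = 1.2e-04). With AP1510, 0 of the 7 passed with limma and 1 had an unadjusted p under 0.05.

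Among 10 inhibitors and shedding enzymes, 3 rose and 3 fell with TGF-alpha, 1 rose with heregulin and 0 passed with AP1510 with limma (1 with an unadjusted p under 0.05). The 1 of 10 with heregulin is near the 8.5% of all genes. PIAS3, an inhibitor that binds STAT3, was higher by 1.45-fold in TGF-alpha cells (adjusted p = 2.2e-04) and by 1.33-fold in heregulin cells (adjusted p = 0.00755). With a trended robust variance, 2 rose with heregulin. SOCS2, of the same family as SOCS3, rose 1.50-fold with TGF-alpha (adjusted p = 8.9e-04). The phosphatase gene PTPN6 fell 1.43-fold (adjusted p = 3.1e-04) and ADAM10, a protease that sheds membrane proteins, 1.37-fold (adjusted p = 0.00294). PTPN1, higher 1.19-fold, and CISH, lower 1.24-fold, passed with TGF-alpha at adjusted p of 0.0384 and 0.0174. PTPN1 missed the threshold without any 1 of the 6 untreated and TGF-alpha arrays (highest adjusted p = 0.117, without untreated replicate 2). PTPN1 also missed the threshold when quantile normalisation was repeated (adjusted p = 0.0566). CISH missed it when TGF-alpha replicate 2 or 1 of untreated replicates 2 and 3 was left out (highest adjusted p = 0.0806, without TGF-alpha replicate 2).

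Of 10 genes that control the decay or stability of cytokine RNA, 2 rose and 4 fell with TGF-alpha, 1 fell with heregulin and 1 fell with AP1510. The heregulin share is near the 8.5% of all genes. ZC3H12A, the RNase Regnase-1 that cuts IL6 RNA, fell 2.76-fold with TGF-alpha (8.65 to 7.18, adjusted p = 2.6e-07). ZFP36L1 was lower by 2.50-fold in TGF-alpha cells (adjusted p = 8.4e-07) and by 1.59-fold in heregulin cells (adjusted p = 0.00289). ZFP36, or tristetraprolin, which binds AU-rich elements of cytokine RNA, was lower by 1.76-fold in TGF-alpha cells (adjusted p = 2.2e-04) and by 1.53-fold in AP1510 cells (adjusted p = 0.0324). The AP1510 call of ZFP36, the only 1 of the list, ended when only those 2 groups were fitted (adjusted p = 0.0923) and when TGF-alpha replicate 2, AP1510 replicate 1 or any untreated array was left out (highest adjusted p = 0.141, without untreated replicate 2). KHSRP rose 1.40-fold (adjusted p = 1.5e-04) and HNRNPD 1.23-fold (adjusted p = 0.0393) with TGF-alpha. HNRNPD missed the threshold when 1 of TGF-alpha replicates 1 and 3 or of untreated replicates 2 and 3 was left out (highest adjusted p = 0.174, without TGF-alpha replicate 3). HNRNPD also missed it when quantile normalisation was repeated (adjusted p = 0.0595). With heregulin, 2 fell without AP1510 replicate 1.

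Of 28 listed STAT3 target genes, heregulin raised 10 and lowered 5, TGF-alpha raised 6 and lowered 7, and AP1510 raised 0 and lowered 3. The share passing over all genes was 8.5%, 26% and 1.47%. The 10 raised with heregulin dropped to 6 without untreated replicate 1 or without untreated replicate 3. The AP1510 count dropped to 1 when any untreated array or AP1510 replicate 1 was left out or when only those 2 groups were fitted, and was 5 (1 higher, 4 lower) with a trended robust variance. The median log2 differences of the 28 were 0.05, -0.04 and -0.06. The acute phase genes SAA1 and SAA2, near-identical copies whose probe sets may read each other's RNA, rose 11.15-fold and 9.60-fold with heregulin (adjusted p = 1.9e-11 for each). SAA1 read 7.25, 7.09 and 7.29 on untreated arrays and 10.93, 10.53 and 10.60 with heregulin, with no overlap. Neither passed with AP1510 (adjusted p = 0.112 and 0.999) or TGF-alpha (adjusted p = 0.133 and 0.127). SERPINA3, the acute phase protease inhibitor alpha-1-antichymotrypsin, rose 8.42-fold with heregulin (adjusted p = 2.0e-09) and 4.89-fold with TGF-alpha (adjusted p = 1.3e-08), and heregulin was 1.72-fold above TGF-alpha (adjusted p = 8.3e-04). Liver acute phase genes of the same list, FGA, FGB, FGG, CRP, HP, LBP and A2M, passed in none of the 3 comparisons with untreated cells. All 7 were dim, below the array median on every array, so the absence of a call shows little. Between treatments, HP passed for heregulin against AP1510 (adjusted p = 0.0413) and LBP for heregulin against TGF-alpha (adjusted p = 0.0381). These calls were lost in 9 and 5 of the 12 refits that left out 1 array.

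The target genes FOS, JUNB and IRF1 fell with every treatment. FOS, an AP-1 subunit, was 1.69-fold lower in AP1510 cells (adjusted p = 0.00109), 1.95-fold lower in TGF-alpha cells (adjusted p = 1.7e-06) and 1.41-fold lower in heregulin cells (adjusted p = 0.00426). JUNB, its partner, was lower by 2.70-fold in TGF-alpha cells (adjusted p = 6.5e-08), 1.56-fold in heregulin cells (adjusted p = 0.00109) and 1.39-fold in AP1510 cells (adjusted p = 0.0385). IRF1, an interferon-responsive factor, fell 4.84-fold, 1.77-fold and 1.78-fold in the same order (adjusted p = 1.0e-07, 0.00815 and 0.0308). With AP1510 only FOS kept its call in all 12 refits: IRF1 lost it when AP1510 replicate 1 or 2 or any untreated array was left out (highest adjusted p = 0.14, without untreated replicate 3). JUNB lost it without any untreated or TGF-alpha array, AP1510 replicate 1 or heregulin replicate 3 (highest adjusted p = 0.15, without AP1510 replicate 1). BIRC5, which encodes survivin, was 2.27-fold higher with TGF-alpha (adjusted p = 1.3e-07), and BCL2L1, which encodes BCL-XL, was 1.75-fold higher (adjusted p = 2.1e-06). CCND1, cyclin D1, fell 1.45-fold with heregulin (adjusted p = 0.00859) and was 1.58-fold higher with TGF-alpha (adjusted p = 5.1e-04).

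**Figure D4:**
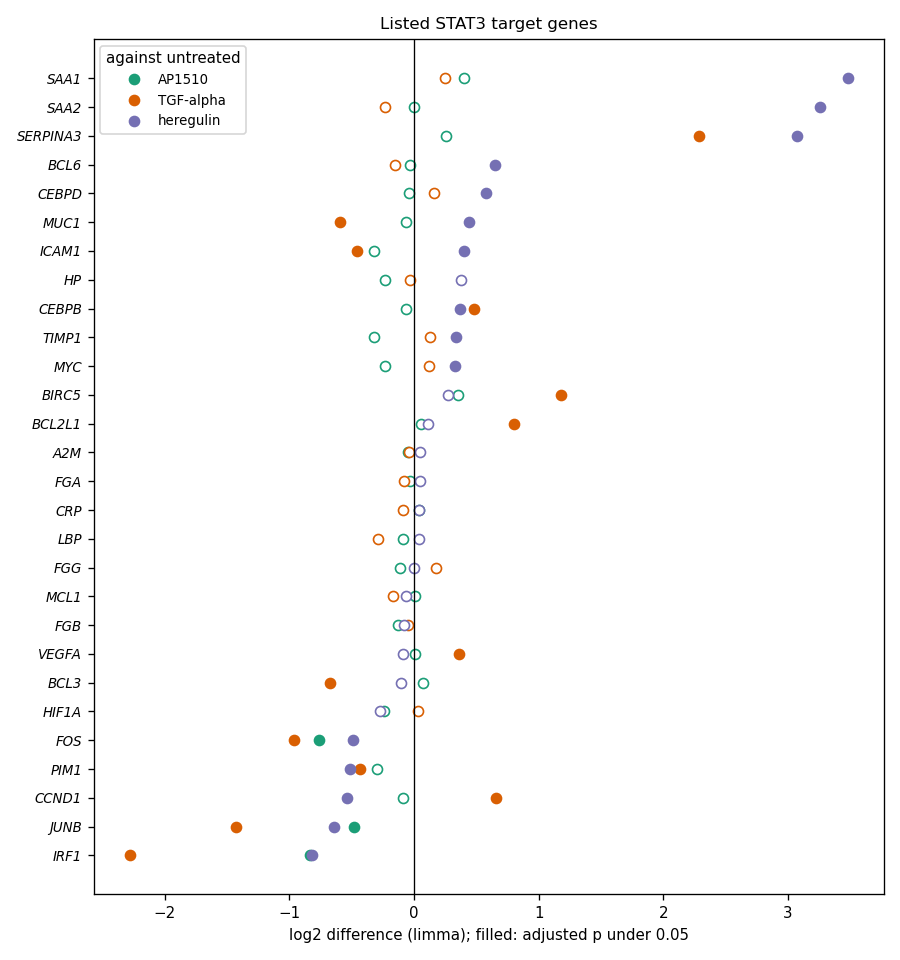
Log2 difference against untreated cells of the 28 listed STAT3 target genes, ordered by the heregulin value, with colours for the 3 treatments and filled points at an adjusted p under 0.05. SAA1, SAA2 and SERPINA3 lie at 3.48, 3.26 and 3.07 with heregulin, and FOS, JUNB and IRF1 lie below 0 with all 3 treatments.

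For the 3 members with the widest range of group means, IL6 (1.57), LIF (1.32) and STAT3 (0.91 log2 units), the genes with the most similar levels were taken by Pearson's r over the 12 arrays. The points share their 4 groups, so r mostly reflects differences between group means, and it is given as a description. For IL6 these were FAM20C (r = 0.960), CD14 (0.958), IFITM1 (0.958), ACOT2 (0.956) and FOS (0.956). For LIF they were MOCOS (r = 0.927), CEMIP (0.912), ATP10A (0.907), PRLR (0.900) and FMNL1 (0.898). Of these, ATP10A (levels 4.44 to 4.74) and PRLR (3.86 to 4.45) were dim, below the array median on all 12 arrays. CEMIP (4.68 to 5.46) lay near or below it. For STAT3 they were GM2A (r = 0.989), PHYKPL (0.982), CRIM1 (0.982), SLC23A2 (0.979) and MUC1 (0.977). MUC1, the mucin gene that is also on the target list, was 1.50-fold lower with TGF-alpha (adjusted p = 3.9e-05) and 1.35-fold higher with heregulin (adjusted p = 0.00259), as it read 12.01, 12.05 and 11.95 untreated, 11.42, 11.50 and 11.33 with TGF-alpha, and 12.53, 12.39 and 12.39 with heregulin.

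Markers of other cell types were read as well, because bulk levels cannot tell fewer cells of a type from less RNA per cell. Of 6 fibroblast markers, COL1A1 and DCN were above the array median on all arrays, and the mean level of the 6 was 5.58 to 5.75 on heregulin arrays against 5.23 to 5.37 on untreated, 5.26 to 5.37 on AP1510 and 5.13 to 5.16 on TGF-alpha arrays. DCN, which encodes decorin, was the only 1 of the 6 that passed, 3.01-fold higher with heregulin (adjusted p = 9.1e-07) and 1.74-fold lower with TGF-alpha (adjusted p = 1.8e-04). COL1A1, COL1A2, COL3A1, PDGFRB and LUM did not pass against untreated with any treatment. Of 5 measured leukocyte markers, CD68 alone was above the median on all arrays, and the mean level of the 5 was 4.58 to 4.66 untreated, 4.59 to 4.72 with AP1510, 4.38 to 4.48 with TGF-alpha and 4.56 to 4.70 with heregulin. CD68 was 1.74-fold lower with TGF-alpha (adjusted p = 2.1e-05). Of 5 endothelial markers PECAM1 was above it on all arrays, and their mean level was 5.42 to 5.43, 5.35 to 5.46, 5.41 to 5.55 and 5.45 to 5.58 in the same order. These means hold changes in both directions: KDR was 1.97-fold higher with TGF-alpha (adjusted p = 1.9e-04) and 1.95-fold higher with heregulin (adjusted p = 9.1e-04). CDH5 was 1.92-fold lower with TGF-alpha (adjusted p = 6.3e-05) and 1.49-fold lower with heregulin (adjusted p = 0.014), and PECAM1 was 1.26-fold lower with heregulin (adjusted p = 0.0218). The mean level of the 5 epithelial markers was 9.66 to 9.73 untreated, 9.91 to 10.03 with AP1510, 10.41 to 10.44 with TGF-alpha and 9.66 to 9.87 with heregulin. KRT5 and KRT14 rose with all 3 treatments and ITGA6 with TGF-alpha, while EPCAM was 1.89-fold higher with TGF-alpha (adjusted p = 0.00266) and 2.13-fold lower with heregulin (adjusted p = 0.0025). The part of these markers in the changes of the IL-6 family genes was not tested.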

How the data were processed

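RNA of 12 samples was read on Affymetrix arrays, per the labels. Each deposited value is a log2 intensity from RMA, which the authors ran, per the submitters' processing notes, in a version that the sources used here do not name. RMA corrects background, equalises the arrays' distributions and summarises probes into probe sets, and it compresses differences of dim probe sets. The values ran from 1.75 to 14.2 and were used without further scaling.

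Of 33297 probe sets, 19460 named 1 gene, 1754 several and 12083 none in the probe annotation. Of the 19460, 19429 had an Entrez ID found in RefSeq (GRCh38.p14) and took the gene name given there. A gene was measured by its probe set with the highest mean over all arrays, which left 18417 genes once probe sets with no gene or more than 1 had been dropped. One linear model with a mean per group was fitted to all 12 arrays with limma 3.58.1 in R 4.3.3 (8 residual and 7.55 prior degrees of freedom). Tests were two-sided, adjusted by Benjamini-Hochberg over all genes within each of 6 comparisons, with a threshold of 0.05. The procedure was also run on simulated data with independent normal noise, whose levels and spreads were taken from these arrays and their fit. The number of arrays limits the precision.

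The 10 members, the gene lists and the tests were chosen with earlier results of these data known. The text names the members, the 3 largest rises and falls that passed in each list against untreated, and for 3 members the 5 genes with the highest correlation. The 5 ligand genes, the 7 liver acute phase genes, the cell type markers and the TGF-alpha value of CCND1 were named outside this rule, after their values were seen. So were the AP1510 and TGF-alpha tests of SAA1 and SAA2, the SERPINA3 difference between the natural ligands and the folds of MUC1. The heregulin value of FOS was outside it too, as PIM1 fell more with heregulin (log2 difference -0.51 against -0.49). Alternatives were the mean of a gene's probe sets, dim genes left out (11504 genes kept), 2 other scalings, a trended robust variance, a fit of only the groups compared, and leaving out each array. The sources used here name no scan date or batch.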

Additional observations from a re-analysis of the deposited data

How the results depend on the processing

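The 9 measured genes were refitted in 6 comparisons under 6 other settings and with each of the 12 arrays left out, 972 differences in all. Of these, 0 called differences changed sign, 12 calls were lost and 5 gained. The losses and 4 of the gains came from leaving out 1 array, and 1 gain (LIFR, TGF-alpha against AP1510) from leaving out dim genes. In 14 refits a difference without a call on either side changed sign. The number of members called ranged over the left-out arrays from 2 to 2 for AP1510 against untreated, 4 to 5 for TGF-alpha against untreated, 4 to 6 for heregulin against untreated, 3 to 5 for TGF-alpha against AP1510, 4 to 5 for heregulin against AP1510 and 4 to 5 for heregulin against TGF-alpha.

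The number of all genes called moved more. With 1 array left out it ranged from 95 to 327 for AP1510 against untreated (271 in all arrays), 3982 to 5184 for TGF-alpha against untreated (4781), 1039 to 1602 for heregulin against untreated (1566), 3164 to 4343 for TGF-alpha against AP1510 (3981), 818 to 1323 for heregulin against AP1510 (1331) and 3145 to 3988 for heregulin against TGF-alpha (3986). Against untreated, AP1510 had 95 without AP1510 replicate 1, and leaving out untreated replicates 1, 2 and 3 gave 117, 149 and 134, while heregulin had 1039 without untreated replicate 3. Heregulin against AP1510 had 818 and 859 without AP1510 replicates 2 and 3. Fitting only the 2 groups compared gave 743 genes for heregulin against AP1510, with fewer arrays to estimate the spread. No other setting moved a count of all genes or of members by over 1.5 times. No paired analysis was possible because the labels give no replicate numbers shared between groups. IL6 and LIF in treated cells and LIFR in heregulin cells lie below the array median. IL6R in untreated and AP1510 cells and SOCS3 in every group lie near it. This limits how well the fold changes of these genes are measured.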
